A study of Mus musculus with 6 samples.

Results

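The 10 genes described here encode the core of MHC class I antigen presentation, the route by which cells display fragments of their own proteins to CD8+ T cells. They are H2-K1, H2-D1, B2m, Tap1, Tap2, Tapbp, Psmb8, Psmb9, Psmb10 and Nlrc5. They were chosen by gene symbol and not by any measured value, and each symbol matched 1 row, so the members are 10 of the 60832 rows of the table. All 10 passed the filter on low counts that left 15474 genes for testing.

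Bulk RNA-seq was performed on primary mouse liver sinusoidal endothelial cells (LSECs), the cells that line the small blood channels of the liver, to ask how LSEC expression differs once colorectal cancer liver metastasis (CRCLM) xenografts no longer respond to bevacizumab, an antibody against VEGF. The xenografts were grown from HCT116 (a human cell line of colorectal cancer), and 3 libraries came from the bevacizumab-sensitive and 3 from the bevacizumab-resistant condition. By the study's methods the hosts were male BALB/c-Nu mice aged 4 to 6 weeks, tumor cells were injected into the liver, the resistant xenografts were generated with 10 mg/kg bevacizumab given repeatedly over several weeks, the vehicle mice received IgG, and LSECs were collected on anti-CD146 beads. The labels add that the cells of all 6 libraries were cultured for 24 h, and they do not give the number of mice behind a library, the strain of each host or a pairing between groups. Nude mice lack a thymus and so nearly all mature T cells, and a human xenograft survives in them for that reason.

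In this pathway the proteasome cuts cytosolic proteins into peptides, and 3 inducible catalytic subunits (Psmb8, Psmb9 and Psmb10) can take the places of the constitutive Psmb5, Psmb6 and Psmb7 to form the immunoproteasome. The transporter made of Tap1 and Tap2 moves peptides into the endoplasmic reticulum, where tapasin (Tapbp) holds an empty class I molecule beside it until a peptide binds. The finished molecule is a heavy chain, here H2-K1 or H2-D1, with the light chain beta-2 microglobulin (B2m), and Nlrc5 is the transactivator that acts on the promoters of most of these genes. Interferon gamma induces the whole set, and LSECs are known to present antigen by this route.

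Of the 10 genes, 7 lie in the MHC region of chromosome 17 (GRCm38, GENCODE M21). H2-K1 (ENSMUSG00000061232) was annotated at chr17:33996017-34000347 on the minus strand and H2-D1 (ENSMUSG00000073411) at chr17:35262730-35267499 on the plus strand. Psmb9 (chr17:34181987-34187764, minus strand), Tap1 (chr17:34187553-34197225, plus strand), Psmb8 (chr17:34197721-34201454, plus strand) and Tap2 (chr17:34203527-34216321, plus strand) stand next to each other, and Tapbp lies at chr17:33915899-33929292. B2m (ENSMUSG00000060802) is at chr2:122147686-122153083, Psmb10 at chr8:105935735-105938444 and Nlrc5 at chr8:94434356-94527272.

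The promoters are shown first because Nlrc5 acts through a row of short boxes that class I promoters share. RefSeq windows of 250 bases before the gene start (GRCm38.p6) were at hand for 8 of the 10 members; those of Tap2 and Nlrc5 were not used here. Each window was searched on both strands for TGACG, the core of the X2 box, where CREB and ATF factors bind, and for CCAAT, the core of the Y box, where NF-Y binds. The 149 bases just upstream of the H2-K1 start and of the B2m start are given on the gene's own strand, with these cores in capitals (ATTGG is the reverse complement of CCAAT).
H2-K1, chr17:34000349-34000497, minus strand: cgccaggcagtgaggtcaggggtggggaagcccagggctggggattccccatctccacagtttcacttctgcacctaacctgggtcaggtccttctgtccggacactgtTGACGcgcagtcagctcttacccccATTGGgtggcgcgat
B2m, chr2:122147537-122147685, plus strand: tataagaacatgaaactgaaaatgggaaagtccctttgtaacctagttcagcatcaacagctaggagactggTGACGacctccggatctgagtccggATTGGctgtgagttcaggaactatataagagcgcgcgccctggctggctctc

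In both promoters the X2 core was followed by the Y core. The X2 core and what follows it are set below each other for the 2 heavy chains, for B2m and for Tap1, with TGACG and, where present, ATTGG in capitals.
H2-K1, chr17:34000359-34000388, minus strand: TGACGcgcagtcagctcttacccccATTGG
H2-D1, chr17:35262993-35263022, plus strand: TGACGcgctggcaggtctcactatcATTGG
B2m, chr2:122147609-122147638, plus strand: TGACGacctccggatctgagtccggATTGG
Tap1, chr17:34187470-34187499, plus strand: TGACGacagagggtcctgccctcaatctgg

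In H2-K1, H2-D1 and B2m exactly 20 bases separated the 2 cores, although the X2 core itself began at different distances from the start, at position -41 in H2-K1, -101 in H2-D1 and -78 in B2m. The pair at this spacing was found in 3 of the 8 member windows. That count was fixed in advance, because the spacing searched for was the one of these 3 promoters, and it is no test. Over all genes the pair was found in 30 of 32851 windows, or 0.0913%. These windows belonged to 26 genes, among them the class I-like gene H2-M3. Each core by itself was common, with TGACG in 17.8% and CCAAT in 33.8% of windows, against 5 and 6 of the 8 members. Tap1 and Psmb9 are transcribed away from each other, with 225 bases between their RefSeq starts. They share 1 stretch of DNA as their upstream region, and their TGACG and CCAAT matches are the same letters, counted once for each gene. A match is a string of letters and was not tested as a binding site.

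The libraries held 17599326 to 20726684 counts on genes. At this depth 3 counts corresponded to 0.145 to 0.170 CPM (a gene's count over all counts of its library, scaled by a fixed factor), and the least abundant member was far above this floor, which covers counting error only. Cells of several kinds were visible in the RNA of all 6 libraries: the CPM of 16 LSEC marker genes summed to 928 to 2195, that of 15 pan-endothelial genes to 83.2 to 541 and that of 18 macrophage and Kupffer cell genes to 26875 to 40764. The macrophage and Kupffer cell sum was thus the highest of the marker lists in every library, although the libraries are labelled LSEC. None of the LSEC, pan-endothelial or macrophage and Kupffer cell markers was at 0 in every library. Neutrophil markers summed to 649 to 7000 in the sensitive and 339 to 2163 in the resistant group, and T and NK cell markers to at most 10.2. Macrophages, endothelial cells and neutrophils all carry class I molecules, so that fewer cells of a type and less RNA per cell cannot be told apart in these bulk values, and the part of these cells in the results below was not tested. Replicate 2 of the sensitive group stood apart from the other libraries, with 575 genes at least 4-fold below every other library, and is treated with the results that rest on it.

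Levels between genes were compared as FPKM, which divides by gene length. B2m was the most abundant member, with FPKM from 1625 to 2862 over the 6 libraries and a median of 2237. H2-D1 followed at 1192 to 2191 and H2-K1 at 210.1 to 518.8, and this order of light chain, H2-D1 and H2-K1 held in 6 of 6 libraries. The processing and loading genes were lower than the heavy chains in all libraries. Psmb10 ranged from 44.2 to 211, Tapbp from 50.4 to 109.7, Psmb8 from 20.3 to 108.9, Tap1 from 12.0 to 42.6, Psmb9 from 11.9 to 42.7 and Tap2 from 12.0 to 28.3. Nlrc5, the transactivator, was the lowest at 3.42 to 7.87.

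Within the middle of this order several neighbours could not be separated. Psmb10 exceeded Tapbp in 4 of 6 libraries, Psmb8 exceeded Tap1 in 5, Tap1 exceeded Psmb9 in 5 and Psmb9 exceeded Tap2 in 4. Tapbp exceeded Psmb8 and Tap2 exceeded Nlrc5 in 6 of 6, the first by as little as 109.7 against 108.9 in replicate 2 of the sensitive group. The spread between libraries was smallest for B2m, 1.76-fold between the highest and the lowest library, and H2-D1, 1.84-fold. It was widest for the inducible subunits Psmb8, at 5.36-fold, and Psmb10, at 4.77-fold.

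**Figure D1:**
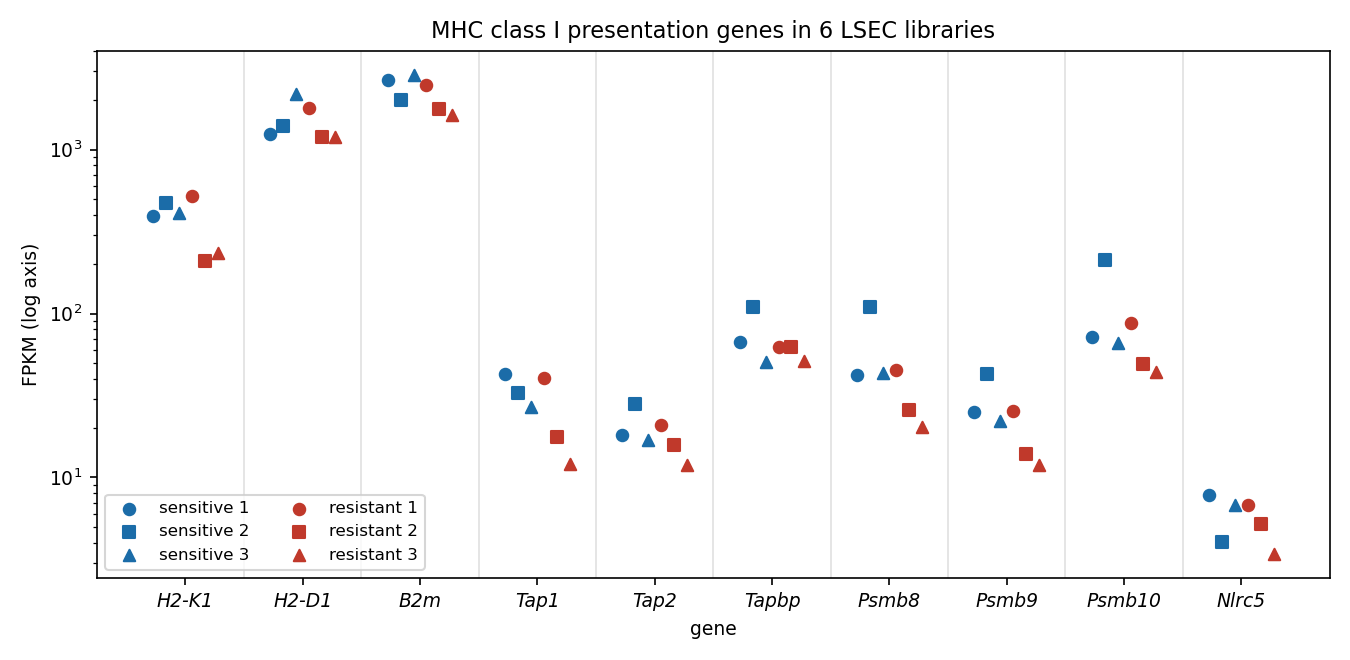
FPKM (log axis) of the 10 genes in each library, with blue for LSECs from sensitive and red for LSECs from resistant xenografts and 1 marker shape per replicate number. The levels run from 3.42 for Nlrc5 to 2862 for B2m, replicates 2 and 3 of the resistant group are the 2 lowest libraries for 8 genes, and replicate 1 of the resistant group lies within the range of the sensitive libraries for every gene but H2-K1, where it is highest at 518.8.

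All 10 genes had a lower fitted level in the resistant group, with a median log2 fold change of -0.50, but none passed the test. Across all 15474 genes 49.2% had a fitted log2 fold change below 0, and the median was 0.01. After Benjamini-Hochberg adjustment of the p-values from edgeR, 0 of the 10 members and 0 of all genes (0%) lay under the threshold of 0.05, and every member had an adjusted p of 0.940. Before adjustment 1 member, Psmb8, lay under 0.05, lower in the resistant group, where 3.08% of all genes passed in either direction and 2.54% in the lower direction. In no member did the 3 libraries of each group stand apart without overlap, as they did for 8.39% of all genes. The unadjusted p-value of Psmb8 was above 0.05 with library totals alone (unadjusted p = 0.0515), limma on log2(FPKM + 1) (0.0538) and limma-voom (0.0557). Several marker lists also had mostly lower fitted levels in the resistant group, with no adjusted p-value under 0.05. Of 15 pan-endothelial genes 14 had a fold change below 0 (median -1.20), 5 an unadjusted p-value under 0.05 and 6 groups without overlap, and their summed CPM was 299 to 541 in the sensitive and 83.2 to 450 in the resistant libraries. Of 12 neutrophil genes 12 had a fold change below 0 (median -1.68), 2 an unadjusted p-value under 0.05 and 1 groups without overlap. Of 16 LSEC genes 12 had a fold change below 0 (median -0.35), 1 an unadjusted p-value under 0.05 and 1 groups without overlap. Of 5 dendritic cell genes tested 4 were lower (median -0.32). Higher fitted levels were found for 7 of 8 hepatocyte genes tested (median 0.93) and 6 of 7 stellate cell genes tested (median 0.47). Macrophage and Kupffer cell genes divided into 9 lower and 9 higher. The part of these cell types in the members' values was not tested. A p-value that misses the threshold does not show that the levels were alike.

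Of the classical heavy chains, H2-K1 had 1162, 1382 and 1206 CPM in the sensitive libraries, in the order of their replicate numbers, and 1524, 617.3 and 689.1 CPM in the resistant libraries. Replicate 1 of the resistant group was the highest of all libraries and the other two of that group the lowest, so the groups overlapped. The log2 fold change of H2-K1 was -0.50 (standard error 0.372, unadjusted p = 0.217 from edgeR). H2-D1 had 3230, 3576 and 5651 CPM in the sensitive and 4621, 3073 and 3092 CPM in the resistant group. Here replicate 3 of the sensitive group was highest, the lowest libraries were again replicates 2 and 3 of the resistant group, and the log2 fold change was -0.29 (standard error 0.314, unadjusted p = 0.394). Without replicate 3 of the sensitive group that of H2-D1 was -0.01.

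The light chain B2m had 2282, 1727 and 2462 CPM in the sensitive and 2121, 1520 and 1397 CPM in the resistant group. Replicate 1 of the resistant group again stood among the sensitive libraries, and replicate 2 of the sensitive group, elsewhere often the highest, was the lowest of its group. The log2 fold change was -0.42 (standard error 0.245, unadjusted p = 0.126). For the balance of heavy and light chain, the summed FPKM of H2-K1 and H2-D1 was 0.621, 0.925 and 0.909 of that of B2m in the sensitive and 0.937, 0.793 and 0.882 in the resistant libraries. The difference of the mean log2 ratios was 0.11 (SD 0.32 and 0.12, n = 3 each, exact permutation p = 0.8, two-sided, where the smallest p this design allows is 0.1), and it turned to -0.08 without replicate 1 of the sensitive group.

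The 2 heavy chains did not keep a fixed ratio, though their log2 CPM rose and fell together in part (Pearson's r = 0.650 over the 6 libraries). The FPKM of H2-D1 was 3.17, 2.95 and 5.34 times that of H2-K1 in the sensitive libraries and 3.45, 5.67 and 5.11 times in the resistant libraries. High ratios were found in both groups, in sensitive replicate 3 and in resistant replicates 2 and 3, and low ratios in the other 3 libraries (exact permutation p = 0.3 between groups, two-sided). The libraries with high ratios were also the lowest for the class I gene H2-Q7, at 15.0, 3.59 and 4.37 CPM against 47.8 to 65.1 CPM in the others. Reads can be split between H2 genes in counting, and the part of this in the ratio was not tested. This ratio and the other ratios between 2 single genes were chosen after their values were seen, and over the 7 ratios tested the adjusted p-values were 0.42 or above.

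For peptide transport, Tap1 had 233.4, 180.2 and 146.3 CPM in the sensitive and 222.0, 97.0 and 65.7 CPM in the resistant group. Only replicate 1 of the resistant group lay within the range of the sensitive libraries, and the log2 fold change was -0.62 (standard error 0.432, unadjusted p = 0.192). Its partner Tap2 had 68.8, 106.8 and 64.3 CPM in the sensitive and 78.5, 59.3 and 45.3 CPM in the resistant group. The pattern of high and low libraries was that of Tap1 within the resistant group but not within the sensitive group, where replicate 2 was highest, and the log2 fold change of Tap2 was -0.49 (standard error 0.328, unadjusted p = 0.177). The FPKM of Tap1 was 2.34, 1.17 and 1.57 times that of Tap2 in the sensitive and 1.95, 1.13 and 1.00 times in the resistant libraries, although the transporter holds 1 of each. These ratios overlapped between groups (exact permutation p = 0.5, two-sided).

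Tapbp, which encodes tapasin, had 243.2, 397.9 and 182.9 CPM in the sensitive and 226.3, 225.7 and 185.9 CPM in the resistant group. The resistant libraries lay entirely within the range of the sensitive ones. The log2 fold change was -0.47 (standard error 0.355, unadjusted p = 0.225), and without replicate 2 of the sensitive group it was 0.005, the only change of direction among the 150 member values recomputed under the alternatives tried.

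The inducible proteasome subunits had the lowest fitted fold changes of the set. Psmb8, the inducible chymotrypsin-like subunit, had 143.2, 368.3 and 147.1 CPM in the sensitive and 152.0, 87.8 and 68.7 CPM in the resistant group. Replicate 2 of the sensitive group was far above all others, replicate 1 of the resistant group lay close to the other two sensitive libraries, and replicates 2 and 3 of the resistant group were lowest. The log2 fold change of Psmb8 was -1.23 (standard error 0.511, unadjusted p = 0.0464, adjusted p = 0.940).

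Psmb9, the inducible counterpart of Psmb6, had 92.4, 156.3 and 80.6 CPM in the sensitive and 92.7, 50.8 and 43.4 CPM in the resistant group. Psmb10, the inducible trypsin-like subunit, had 122.0, 359.0 and 112.5 CPM in the sensitive and 149.4, 84.4 and 75.3 CPM in the resistant group. Both genes repeated the order seen for Psmb8, with replicate 2 of the sensitive group highest and replicates 2 and 3 of the resistant group lowest. The log2 fold changes were -0.93 for Psmb9 (standard error 0.405, unadjusted p = 0.0547) and -1.09 for Psmb10 (standard error 0.559, unadjusted p = 0.0925). Without replicate 2 of the sensitive group they were -0.51 for Psmb8, -0.48 for Psmb9 and -0.20 for Psmb10.

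Replicate 2 of the sensitive group differed from the others according to gene length. Its log2 CPM was above the mean of the other libraries by a median of 0.48 over the 5160 shortest tested genes, and the median difference was -0.06 over the 5156 genes of middle length and -0.52 over the 5158 longest. The differences of the members in that library were 1.99 for Psmb10 (1705 bp by the length that the FPKM imply), 1.92 for Psmb8 (3381 bp), 1.41 for Psmb9 (3660 bp), 1.14 for Tapbp (3628 bp) and 1.00 for Tap2 (3781 bp). All of these except Psmb10 belong to the middle length class, and their differences exceeded the median of that class. H2-K1 (2938 bp), of the same class, differed by 0.72, and the shorter H2-D1 (2579 bp) and B2m (860 bp) by 0.14 and 0.08. Of the 2 members among the longest genes, Tap1 (5476 bp) differed by 0.62 and Nlrc5 (8493 bp) by -0.29.

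Nlrc5 had 66.8, 34.3 and 57.7 CPM in the sensitive and 57.4, 44.1 and 29.03 CPM in the resistant group. Here replicate 2 of the sensitive group, highest for the proteasome subunits, was the second lowest library, and the log2 fold change was -0.33 (standard error 0.302, unadjusted p = 0.309). Reads on the opposite strand may be counted in part with it, since 78 exonic bases are shared with 9330175E14Rik, which held 554 counts over all libraries.

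**Figure D2:**
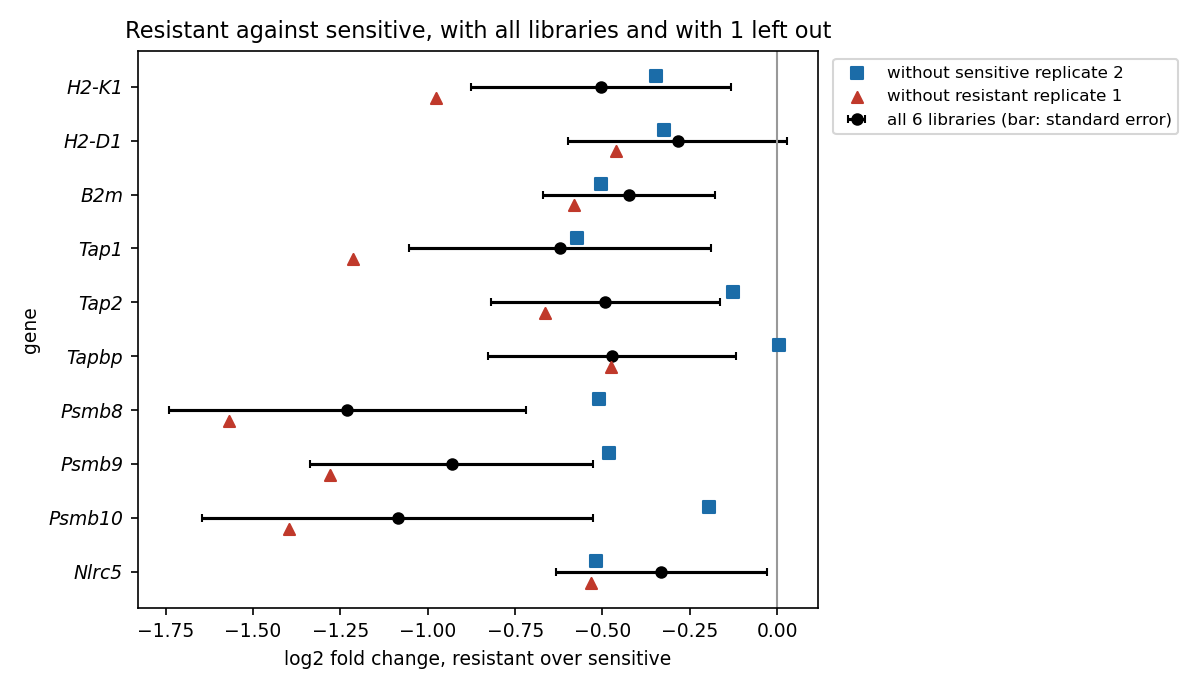
Fitted log2 fold change, resistant over sensitive, of each gene with its standard error (black points and bars, all 6 libraries), without replicate 2 of the sensitive group (blue squares) and without replicate 1 of the resistant group (red triangles). Black points run from -1.23 for Psmb8 to -0.29 for H2-D1; the squares of Tapbp, Tap2 and Psmb10 lie nearest to 0 and the triangles of Tap1 and H2-K1 move farthest to lower values.

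Because the inducible subunits replace constitutive ones, the balance of the pairs within a library is a measure that does not depend on how libraries are scaled. The summed FPKM of Psmb8, Psmb9 and Psmb10 was 0.872, 1.15 and 0.853 of that of Psmb5, Psmb6 and Psmb7 in the sensitive libraries and 0.957, 0.472 and 0.470 in the resistant libraries. Replicates 2 and 3 of the resistant group thus lay well under the others, while replicate 1 of that group lay among the sensitive libraries. The difference of the mean log2 ratios was -0.67 (SD 0.24 in the sensitive and 0.59 in the resistant group, n = 3 each, exact permutation p = 0.3, two-sided, smallest possible 0.1). Leaving out resistant replicate 1 moved it to -1.01, and leaving out resistant replicate 3 to -0.50.

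By pair, the ratio of Psmb8 to Psmb5 was 0.720, 0.744 and 0.701 in the sensitive and 0.692, 0.339 and 0.340 in the resistant libraries. The sensitive libraries agreed closely, replicate 2 included, and the groups did not overlap, by a margin of 0.701 against 0.692 (exact permutation p = 0.1, two-sided, the smallest this design allows, and 0.42 adjusted over the 7 ratios). Psmb9 to Psmb6 was 0.336, 0.290 and 0.340 in the sensitive and 0.337, 0.162 and 0.154 in the resistant libraries, with the same 2 libraries low and an overlap through replicate 1 (exact permutation p = 0.3). Psmb10 to Psmb7 was 2.80, 9.40 and 2.41 in the sensitive and 3.53, 1.83 and 1.71 in the resistant libraries (exact permutation p = 0.3). Only in this pair did replicate 2 of the sensitive group depart widely, and Psmb7 was also the one constitutive subunit that was not raised there, at 76.7 CPM against 84.9 to 93.7 CPM in the other libraries. Psmb5 had 131.7 CPM in that library against 52.9 to 68.8 CPM in the others, and Psmb6 275.9 CPM against 121.3 to 160.6 CPM. Between the groups, the constitutive subunits had log2 fold changes of -0.53 for Psmb5 (standard error 0.44), -0.38 for Psmb6 (0.39) and -0.01 for Psmb7 (0.18).

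**Figure D3:**
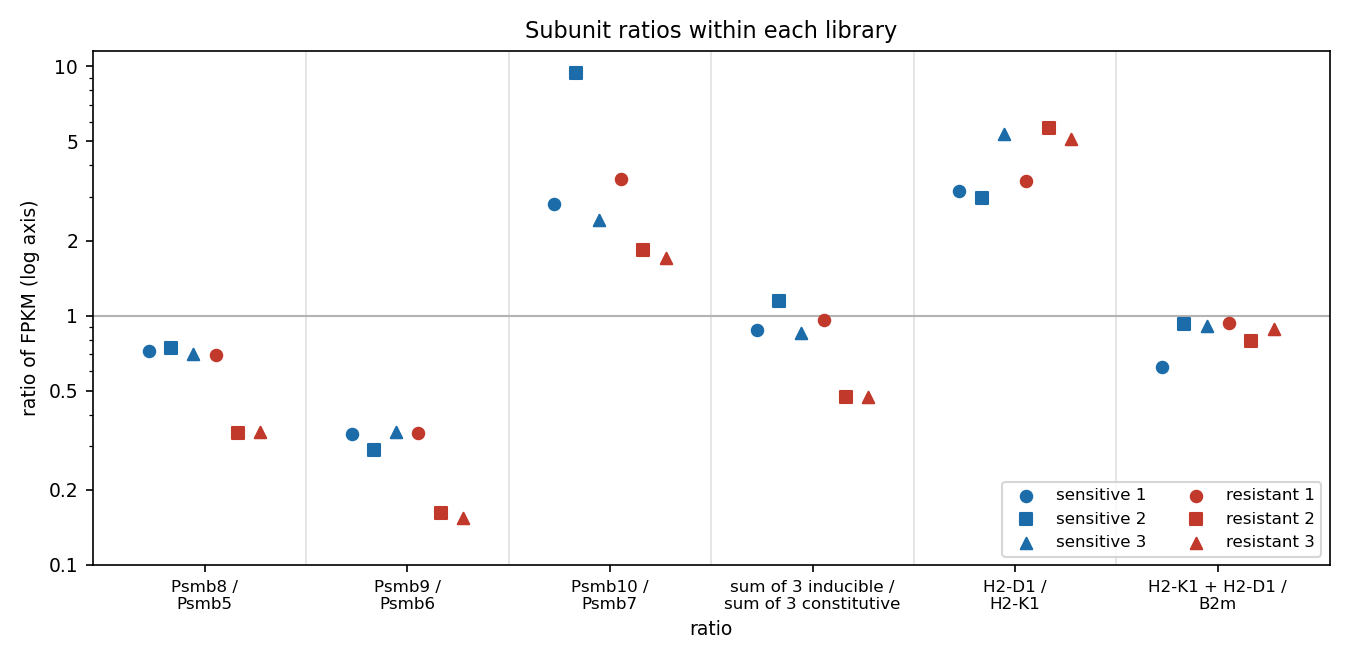
Ratios of FPKM within each library (log axis, line at 1) for the 3 proteasome pairs, the summed subunits, the 2 heavy chains and the heavy chains over B2m, with blue for sensitive and red for resistant libraries. For Psmb8 to Psmb5 the values of replicates 2 and 3 of the resistant group, 0.339 and 0.340, lie under the other 4, which span 0.692 to 0.744, and heavy chain over B2m shows no such split.

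The lowest libraries were shared by most members, and the highest library was not. Replicate 3 of the resistant group was the lowest library for 7 of the 10 genes and among the 2 lowest for all 10, and replicate 2 of that group was among the 2 lowest for 8. Replicate 1 of the resistant group was among the 2 highest for 7, and the highest library was replicate 2 of the sensitive group for 5, replicate 1 of that group for 2, replicate 3 of that group for 2 and replicate 1 of the resistant group for 1. The mean of the members' log2 CPM, each gene centred on its own mean, was 0.08, 0.73 and 0.11 in the sensitive libraries and 0.17, -0.40 and -0.69 in the resistant libraries. The resistant libraries thus did not form one level.

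The group difference accordingly depended on which library was present. Without replicate 1 of the resistant group, 8 of the 10 members (all but Tapbp and Nlrc5) had groups that did not overlap, where 21.6% of all genes did, the median log2 fold change was -0.82, and 4 members lay under 0.05 before adjustment, where 3.91% of all genes did, among them Tap1 at -1.22 (unadjusted p = 0.00888) and H2-K1 at -0.98 (unadjusted p = 0.0135). Without replicate 2 of the sensitive group, 2 members (B2m and Nlrc5) did not overlap, where 18.4% of all genes did, and 0 lay under 0.05 before adjustment. Without replicate 3 of the resistant group the median was -0.31 and 0 members did not overlap, where 11.8% of all genes did. Leaving out replicate 1 of the sensitive group gave 0 such members (20.7% of all genes), and leaving out its replicate 3 gave 1 (23.7%). Leaving out replicate 2 of the resistant group gave 0 (15.3%). In no setting did a member have an adjusted p-value under 0.05, the smallest being 0.619, and all 10 members kept a fold change below 0 with all 6 libraries under each scaling and test tried.

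Other steps of peptide generation were read from 18 further genes of the table. Of these 14 had a lower and 4 a higher fitted level in the resistant group, 0 passed the test, 0 had an unadjusted p-value under 0.05, and the median log2 fold change was -0.22. The most abundant were the proteasome core subunits Psmb4 (log2 fold change -0.50 ± 0.43, standard error here and for the genes that follow), Psma7 (-0.37 ± 0.34) and Psma1 (-0.16 ± 0.28). Each of these was highest in replicate 2 of the sensitive group. Psmb4 had 507.9 CPM there against 185.9 to 257.9 CPM elsewhere, Psma7 348.1 against 175.7 to 215.4 and Psma1 227.4 against 135.7 to 175.2. The part of that library in the signs of this list was not tested. Psme4, a proteasome activator, had 128.1, 63.1 and 126.2 CPM in the sensitive and 140.7, 153.5 and 162.8 CPM in the resistant group and was the 1 gene of this list without overlap (0.49 ± 0.26).

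The chaperones of folding and loading had the opposite sign to the members more often than not. Of 10 genes 3 had a lower and 7 a higher fitted level, 0 passed the test or had an unadjusted p-value under 0.05, and the median was 0.29. Calr, which encodes the chaperone calreticulin of the loading complex, had a log2 fold change of 0.09 ± 0.31, Pdia3, its thiol oxidoreductase partner, of -0.003 ± 0.27 and the membrane chaperone Canx of 0.31 ± 0.25. Hspa5, the main chaperone of the endoplasmic reticulum, had 759.7, 740.0 and 826.6 CPM in the sensitive and 952.1, 880.1 and 1099 CPM in the resistant group, without overlap (0.26 ± 0.21). Tapbpl, a relative of tapasin, had a log2 fold change of -0.35 ± 0.28. For Canx, replicate 2 of the sensitive group was the lowest library, at 258.4 CPM against 438.1 to 556.1 CPM elsewhere. That library was also the lowest for Hspa5, but not for Calr, Pdia3 or Tapbpl. Its part in the signs of this list was not tested.

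Among 13 transcription factors of class I genes, 6 had a lower and 7 a higher fitted level, 0 had an unadjusted p-value under 0.05 and the median was 0.03. Irf8 and Irf1, interferon regulatory factors, had log2 fold changes of -0.21 ± 0.21 and -0.37 ± 0.25, and Rela and Nfkb1, subunits of NF-kappaB, of 0.03 ± 0.24 and 0.19 ± 0.28. Of 15 genes of interferon signalling 12 passed the filter, 10 lower and 2 higher, with a median of -0.41, and 0 had an adjusted p-value under 0.05. Ifng itself, the gene of interferon gamma, had 1 count in 1 library and 0 in the others. Of 6 receptors for class I ligands 3 passed the filter, with Pirb, an inhibitory receptor of myeloid cells, the most abundant (302.7 CPM on average, log2 fold change -0.31 ± 0.22), and the CD8 genes Cd8a and Cd8b1 held 1 and 0 counts in all.

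In the 5 non-member genes whose log2 CPM followed the members' mean most closely, Pearson's r over the 6 libraries was 0.995 for Saa3, 0.994 for Apobec3, 0.989 for Batf, 0.988 for Jak3 and 0.988 for Nmi, out of 9092 genes with a mean of at least 10 CPM. With replicate 2 of the sensitive and replicate 3 of the resistant group left out, the libraries farthest from the median, r was 0.956 or above over the remaining 4. The 5 genes were picked as the highest r over all 6 libraries, these 4 included, so this is no independent check. Saa3 is an acute phase protein of macrophages, Apobec3 a restriction factor against retroviruses, Batf a transcription factor, Jak3 a cytokine receptor kinase and Nmi an interferon-induced protein. Among the members themselves, 44 of the 45 pairs had r above 0 (median 0.727, from -0.141 to 0.987). The 6 points share their libraries' scaling and composition, and r is given as a description.

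Other class I and class I-like genes were read as well, many of which lie in the MHC region. Of 15 genes 13 had a lower and 2 a higher fitted level, with a median of -0.59, and 3 had an unadjusted p-value under 0.05. H2-T10 had 23.5, 46.8 and 40.8 CPM in the sensitive and 22.7, 20.5 and 9.52 CPM in the resistant group, without overlap (log2 fold change -1.18, unadjusted p = 0.0297). H2-M2 (-2.25, unadjusted p = 0.0123) and the soluble class I relative Azgp1 (1.82, unadjusted p = 0.0297) also did not overlap, but H2-M2 was read from only 3 to 20 counts a library. Cd1d1, which presents lipids to NKT cells, was higher in the 3 resistant libraries without overlap (0.59 ± 0.28). Fcgrt, the neonatal Fc receptor heavy chain that pairs with B2m, was the most abundant of the list (444.3 CPM on average, -0.49 ± 0.50).

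Replicate 3 of the sensitive group stood apart within the MHC region. H2-T23, which encodes Qa-1, had 470.6, 563.7 and 48.4 CPM in the sensitive and 410.5, 143.6 and 225.8 CPM in the resistant group. H2-T22 had 161.2, 266.2 and 16.7 CPM in the sensitive and 147.7, 39.7 and 61.7 CPM in the resistant group. H2-T24 had 157.6, 223.6 and 9.24 CPM in the sensitive and 83.1, 53.1 and 53.7 CPM in the resistant group. For each of these genes replicate 3 of the sensitive group was the lowest of all libraries, while for H2-D1 it was the highest. Over the 11 H2-Q and H2-T genes tested, it was the lowest for 7, replicate 2 of the resistant group for 3 and replicate 3 of that group for 1. For H2-Q4, replicates 2 and 3 of the resistant group had 48.4 and 57.8 CPM, against 156.3 CPM in replicate 3 of the sensitive group.

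In all, 40 genes were at least 4-fold lower in that library than in every other one, with at least 20 counts in each of the others. Of these, 7 (17.5%) lay between the start of H2-K2 and the end of H2-M2, at chr17:33974659-37483552. This stretch, chosen after values were seen, held 131 genes or 0.847% of those tested and does not reach Tapbp. In the other libraries 0 to 2 genes of the region met this limit. It asks for a library far below every other one, so libraries that are similarly low together cannot meet it. Such a case was H2-Q7, at 3.59 and 4.37 CPM in replicates 2 and 3 of the resistant group against 15.0 to 65.1 CPM elsewhere. Of the 11 H2-Q and H2-T genes tested, 10 were lower in replicate 3 of the sensitive group than in replicates 1 and 2, and all 11 were higher in replicate 1 of the resistant group than in replicates 2 and 3.

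The class II genes beside them, chosen after their values were seen, divided in that library. H2-Eb1 and H2-Ea, the chains of I-E, had 93 and 41 counts there against 375 to 6201 and 82 to 1117 counts in the others. H2-Aa, a chain of I-A, had 17420 counts there against 702 to 5197 in the others. H2 genes vary strongly between mouse strains, some strains carry no working H2-Ea, and reads of one haplotype can align poorly to another; the host strain of each library is not in the labels, and the part of haplotype in these values was not tested. H2-K1, H2-D1 and the H2-Q genes resemble each other closely, so reads could be split between them in counting, and the values of H2-K1 and H2-D1 are uncertain in that respect. The 8 members outside this family are free of that limit, but 212 exonic bases are shared by Tap1 and Psmb9 on opposite strands and 149 by Tapbp and Zbtb22 on the same strand, and the sources used here do not state whether counting used strand.

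**Figure D4:**
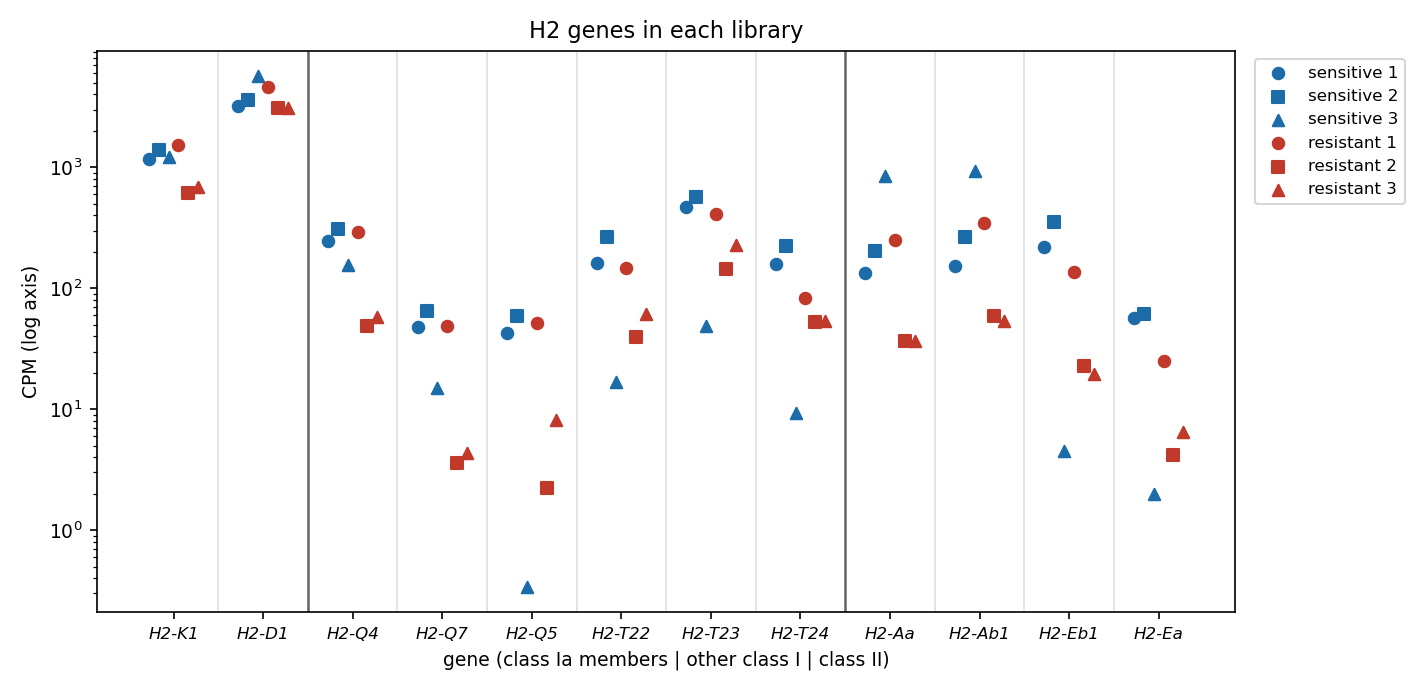
CPM (log axis) of H2-K1 and H2-D1, of 6 other class I genes and of 4 class II genes of the H2 complex in each library, with blue for sensitive and red for resistant libraries. Replicate 3 of the sensitive group (blue triangle) is lowest for H2-T23 at 48.4 and for H2-Eb1 at 4.52 but highest for H2-D1 at 5651 and H2-Aa at 847.4.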

How the data were processed

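The authors aligned reads with HISAT2 2.0.5, counted them on genes with featureCounts 1.5.0-p3 and deposited whole-number counts without normalization, together with FPKM values that equal the count over the library's total and 1 length per gene. The deposited symbols and identifiers were used. Per the labels the submitters' processing notes list mm9, with no role given; coordinates here are those of GENCODE M21 (GRCm38), looked up by Ensembl identifier, which 96.2% of tested genes had. A further table of the authors' own comparison (group means, fold changes, p-values) was not used.

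Counts of all genes were fitted in R 4.3.3 with edgeR 4.0.16 (filterByExpr, TMM, robust quasi-likelihood test, two-sided, no covariate, Benjamini-Hochberg over 15474 genes, threshold 0.05), after the script was tested on simulated data. TMM factors were 0.881 to 1.067, and log2 CPM used a prior count of 2. Ratios of FPKM were compared by exact permutation over libraries. P-values measure the spread between these libraries, which may be technical, since separate mice are not stated. Alternatives were DESeq2 1.42.0, limma 3.58.1, other scalings and filters, log2(FPKM + 1), a replicate block, and leaving out libraries in turn. For library preparation the methods give poly(A) selection as well as removal of ribosomal RNA.

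The members and gene lists were chosen with earlier results of these data known. Named genes were the members and the 5 genes most like the members' mean. Of the lists, genes with an unadjusted p-value under 0.05, without overlap or among the most abundant were named. H2-Eb1, H2-Ea, H2-Aa, H2-K2, Tapbpl, Irf1 and the CD8 genes were named outside that rule after their values were seen. H2-T24, H2-Q7, Psme1, Psme2 and Ifng were named outside it as well. Marker lists of dendritic cells (27.4 to 51.9 CPM), B cells (0.416 to 2.38), hepatocytes (32.6 to 165) and stellate cells (67.8 to 282) were summed likewise. A result for 1 listed gene is not reported here.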

Additional observations from a re-analysis of the deposited data

How the results depend on the processing

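At an adjusted p-value under 0.05, edgeR called 0 genes, DESeq2's Wald test 24 for the genes edgeR tested and 25 where any gene above 1 count entered, and edgeR without a filter 2, against 0 in each other setting, also with 1 library left out. None of these was a member. Before adjustment 476 genes lay under 0.05, which became 732, 1175 and 2036 in these 3 settings and 167 to 1056 when 1 library was left out. The median log2 fold change of the 10 members was -0.53 to -0.40 with all 6 libraries and -0.82 to -0.31 with 1 left out, while the median of all genes moved most with DESeq2 and the wider gene set, to -0.10. Of 150 member values 149 had the same sign and stayed on one side of the adjusted threshold; Tapbp turned to 0.005 without replicate 2 of the sensitive group, within a range of -0.70 to 0.005. The count of members with an unadjusted p-value under 0.05 was 3 without replicate 1 of the sensitive group (3.76% of all genes there), 3 without replicate 3 of the sensitive group (6.53%), 4 without replicate 1 of the resistant group (3.91%) and 0 without each of the others (1.03% to 3.96%). It was 3 and 2 in the narrower and wider DESeq2 tests, 2 without a filter, 0 with limma-voom, library totals alone and log2(FPKM + 1), and 1 in the other settings. The heavy chain to B2m log2 ratio was -0.078 to 0.21 with 1 library left out, reversed without replicate 1 of the sensitive group; the immunoproteasome ratio was -1.01 to -0.50. The cause was not tested.

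Same-numbered libraries did not deviate together (r of deviations -0.000932, 0.0343 and 0.194), so the numbers were not taken as pairs. With the replicate number as a replicate block, 467 genes had an unadjusted p-value under 0.05 and 0 an adjusted one, the median of the members was -0.53, and the member under 0.05 was Tap1 (unadjusted p = 0.0463) in place of Psmb8 (unadjusted p = 0.0660).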

Other observations

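H2-Bl, a class I gene of the H2 complex, was picked out once its values had been read. It had 21, 3 and 29 counts in the sensitive and 16, 187 and 209 counts in the resistant libraries. Replicates 2 and 3 of the resistant group, the lowest libraries for most presentation genes, were the 2 highest for H2-Bl (log2 fold change 2.98, unadjusted p = 0.0259, adjusted p = 0.940 from edgeR), and the groups overlapped through replicate 1. Reads of H2 genes can align differently by haplotype or be split between genes, and the part of this in the H2-Bl values was not tested.

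Psme1 and Psme2, the interferon-induced subunits of the PA28 proteasome activator, were read beside the inducible catalytic subunits. Psme2 had 64.0, 211 and 70.2 CPM in the sensitive and 57.8, 70.3 and 33.5 CPM in the resistant libraries (log2 fold change -1.23, standard error 0.58). Psme1 had 118.9, 244.8 and 102.3 CPM in the sensitive and 118.8, 106.6 and 88.2 CPM in the resistant libraries (-0.69, standard error 0.41). In both genes replicate 2 of the sensitive group was highest and replicate 3 of the resistant group lowest, and the groups overlapped.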
